A study of Caenorhabditis elegans with 22 samples.

Results

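Gene expression in whole young adult hermaphrodites of Caenorhabditis elegans was compared between worms carrying both isp-1(qm150) and ced-4(n1162) and wild type worms exposed to 0.1 mM paraquat. The arrays were taken by their titles, 3 arrays of the double mutant and 3 arrays of the treated wild type, which together are 6 of the 22 arrays of the series. The series measured wild type, isp-1, nuo-6 and ced-4 mutants, both double mutants with ced-4, and paraquat-treated wild type, with 1 biotin-labelled total RNA sample per Affymetrix array. For reference the text also gives untreated wild type (4 arrays), isp-1(qm150) single mutants (3 arrays) and ced-4(n1162) single mutants (3 arrays). All groups share the Bristol N2 strain background, were synchronised by letting mothers lay eggs for 4 h, and were collected by hand picking at the young adult stage, with a buffer wash before RNA extraction. The labels give no paraquat for any mutant group. The double mutant and the treated wild type therefore differ in 3 ways at once, the isp-1 allele, the ced-4 allele and the drug. The comparison cannot tell these apart. Values of the single mutants are shown beside it for some of the genes and lists. The labels call the arrays of a group biological replicates without saying whether they came from separate cultures, so p-values measure the spread between these samples. In whole worms, fewer cells of a type and less RNA per cell cannot be told apart.

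Paraquat is a redox cycling herbicide that makes superoxide, much of it in mitochondria. ISP-1 is the Rieske iron-sulphur protein of mitochondrial complex III, and the qm150 allele slows respiration and development and lengthens life. CED-4 is the worm homologue of Apaf-1: in the intrinsic apoptosis pathway EGL-1 frees CED-4 from CED-9, and CED-4 then activates the caspase CED-3. In C. elegans the pathway is also known for a role in responses to mitochondrial reactive oxygen species that does not end in cell death.

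Before the groups are compared, the labels were checked. Expression values were the authors' GCRMA values on a log2 scale, and differences are given as log2 values of the double mutant minus paraquat. The targeted transcript checked the labels: ced-4 (chromosome III) read 5.53, 5.74 and 5.83 in the double mutant and 8.54, 8.33 and 8.25 with paraquat. The groups did not overlap, and the difference was -2.67 ± 0.18 (SE), adjusted p = 2.08e-08, or 6.38-fold lower in the double mutant. The ced-4 single mutant arrays were also low, at 5.62, 5.89 and 5.66, against 7.32 to 7.93 in wild type. The isp-1 transcript, which carries the other mutation, did not pass the test (difference 0.15, adjusted p = 0.284), and its probe set is of a kind that may bind several transcripts. nuo-6, a complex I subunit not mutated in either group, was higher in the double mutant by 0.55 ± 0.11 (SE), adjusted p = 0.00159. Relative to wild type nuo-6 differed by 0.10 in the double mutant (adjusted p = 0.45) and by -0.45 with paraquat (adjusted p = 0.00176).

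Of 9647 genes tested, 1177 were higher in the double mutant than with paraquat (12.2%) and 1477 were lower (15.3%) at an adjusted p under 0.05. Of these, 485 were higher and 476 were lower by at least 2-fold. With each array centred on its median, 1315 were higher and 1276 lower, so which direction held more calls turned with the scaling. The median difference over all tested genes was -0.05. At the level of probe sets 3542 of 12639 passed. Replicate 1 of the double mutant stood apart from its group: it correlated with replicates 2 and 3 at r = 0.974 and 0.963 over the tested probe sets, while those correlated with each other at 0.991, and it correlated with isp-1 replicate 3 at 0.973. The 3 paraquat arrays correlated at 0.990 to 0.991 with each other. Wild type replicate 1 also stood apart from its group in the pharyngeal genes described below. Leaving out replicate 1 gave 2745 called genes, of which 2224 were called in the same direction with all arrays, and leaving out replicate 2 gave 1715. Weighting the arrays by their fit raised the count to 4673. In that fit double mutant replicates 1, 2 and 3 had weights of 0.34, 4.24 and 0.72, so its values rested mostly on replicate 2.

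The probe sets of some genes named here are of a kind that may bind several transcripts, so their values may belong in part to other genes. They are those of isp-1, clec-174, clec-17, clec-190, ftn-1, abu-15, myo-1, spe-41, skn-1, oma-1, his-38, his-64, cpr-3, ifb-2, cpr-5, mup-2, col-95, col-101, abu-8, cdo-1, trx-2, clpp-1, nduf-7, atp-3, rpn-6.1, aldo-1, pod-2, cyp-14A5, ugt-29, lys-2, irg-7, cdr-4, nhr-65, grl-7, unc-54, myo-3, myo-2, pat-10, hrg-1, mtl-2, hsp-60 and tni-3. Some genes were named after their values were seen, outside the naming rule, namely sod-3, sod-2, ced-9, unc-54, myo-3, tni-4, myo-2, pat-10, hrg-1, mtl-1, mtl-2, his-24, hsp-60, gpx-5, cps-6, crn-1, gst-4 and tni-3. The arrays of a group number 3 or 4, which limits the precision of every value, and fold changes of genes near the low end of the scale are uncertain.

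**Figure D1:**
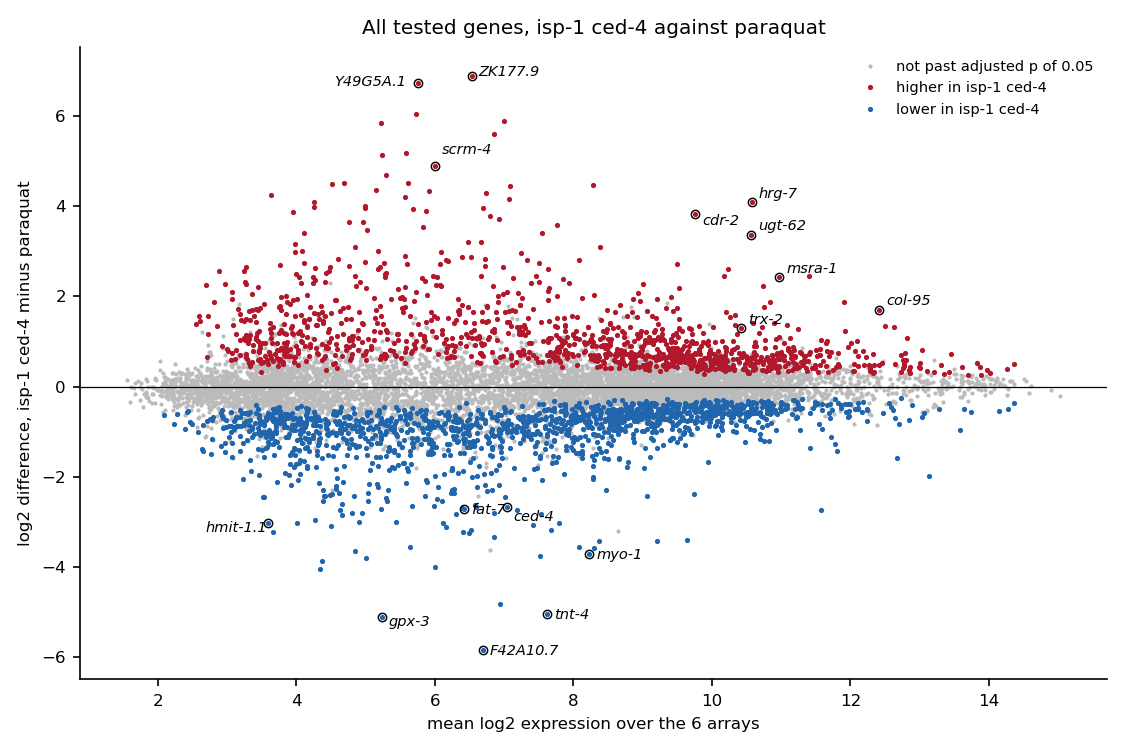
Log2 difference (double mutant minus paraquat) of each of the 9647 tested genes against its mean log2 expression over the 6 arrays; coloured points passed an adjusted p of 0.05 and ringed points are genes described in the text. Differences range from 6.89 for ZK177.9 to -5.85 for F42A10.7.

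Both groups had low sperm transcripts and high oocyte transcripts relative to wild type. The pair was chosen for this trait, so the counts of sperm and oocyte genes against wild type restate the choice. Averaged over 35 tested sperm genes of 45 on the array, the log2 difference from the wild type mean was -1.57, -3.58 and -4.06 in double mutant replicates 1, 2 and 3, and -2.23, -2.66 and -2.71 with paraquat. Against wild type 32 of the sperm genes were lower in the double mutant and 32 with paraquat, where 22.5% and 16.2% of all genes were. These comparisons share the same 4 wild type arrays. The double mutant arrays lay on both sides of the paraquat arrays, with replicate 1 above them and the others below. In the comparison of the groups 2 sperm genes were higher and 1 was lower (median -0.48), beside a background of 12.2% and 15.3% of all tested genes. Without double mutant replicate 1, 23 of the 35 were lower (median -1.45) and 2 were higher. Those called higher were spe-6, which encodes a casein kinase family protein of spermatogenesis (5.19 to 5.92 against 4.06 to 4.66, difference 1.08, adjusted p = 0.0058), and spe-41, which encodes a sperm TRP channel (difference 0.91, adjusted p = 0.0167). The spe-41 call was lost without paraquat replicate 1 or double mutant replicate 3 (adjusted p = 0.064 and 0.088). spe-44, a transcription factor of spermatogenesis, was lower (6.60 to 7.11 against 7.61 to 8.37, difference -1.23, adjusted p = 0.0015). Unlike most of the list it was above wild type with paraquat (difference 1.03, adjusted p = 0.00142). In the double mutant spe-44 differed from wild type by -0.20 (adjusted p = 0.482).

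The major sperm proteins, the abundant cytoskeletal proteins of crawling sperm, showed the same dependence on 1 array. None of 23 tested genes passed limma's test in either direction (median -0.54, with 0 at an unadjusted p under 0.05), and all 23 were lower (median -1.05) without double mutant replicate 1. As a family of near-identical copies, their probe sets cannot be assigned to single genes. Oocyte and early embryo genes had a smaller median difference between the groups than sperm genes, while more of them were called. Against wild type 33 were higher in the double mutant and 32 with paraquat, where 29.3% and 25.9% of all genes were. The wild type arrays were again shared, and the pair was chosen for high oocyte transcripts. The mean over 35 tested oocyte and early embryo genes was 0.65, 0.88 and 0.91 above wild type in the double mutant and 0.90, 0.93 and 0.86 with paraquat. Between the groups 3 were higher and 6 lower (median -0.13), beside 12.2% and 15.3% over all genes. Without either paraquat replicate 3 or double mutant replicate 2 or 3, 1 gene was called higher. skn-1, a transcription factor supplied to the embryo and active against oxidative stress in the intestine, was higher in the double mutant (10.22, 10.62 and 10.61 against 9.44, 8.85 and 9.11, difference 1.35 ± 0.19 (SE), adjusted p = 0.000102). Its probe set may bind several transcripts. The oocyte regulators oma-1 and spn-4 were lower, with differences of -1.0 and -0.76 (adjusted p = 0.00324 and 0.00215), and egg-1, of the same list, by -0.59 (adjusted p = 0.0125).

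**Figure D2:**
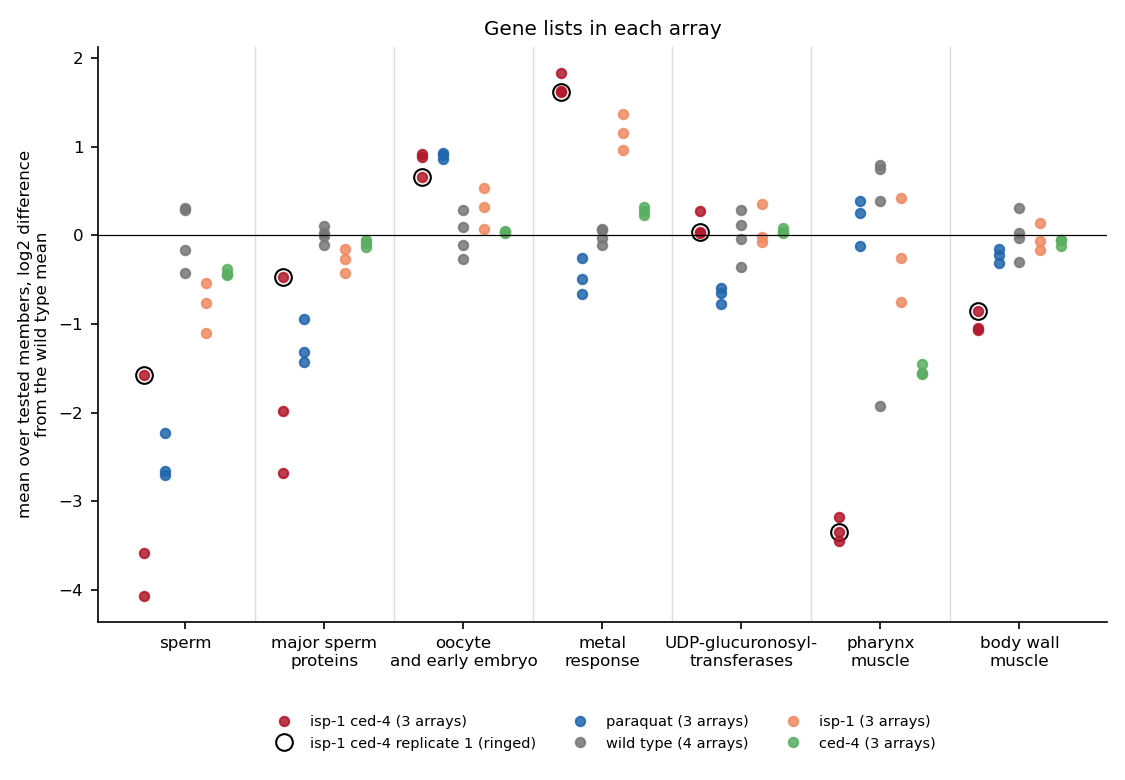
Mean over the tested members of 7 gene groups in each array, as the log2 difference from the wild type mean; each point is 1 array, coloured by group, and the double mutant replicate 1 is ringed. The ringed array is nearer to wild type than its group in the sperm and major sperm protein lists, while in the metal response list (1.61, 1.83 and 1.63) and the pharyngeal muscle genes it lies with the other double mutant arrays.

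Among 19 tested genes of the intrinsic apoptosis pathway, 2 were higher and 4 lower in the double mutant (median -0.30), beside 12.2% and 15.3% over all genes, and 7 were lower with array weights. The shares with all arrays equally weighted were near those over all genes. Since ced-4 is itself mutated in 1 of the groups, it was 1 of the genes that were lower. ced-3, the caspase that CED-4 activates, was higher: it read 4.25, 5.09 and 4.96 in the double mutant and 3.44, 2.75 and 3.39 with paraquat, without overlap (difference 1.57 ± 0.30 (SE), adjusted p = 0.00104). Among the groups given here ced-3 reached the filter value of 3.68 in the double mutant alone, so it had to differ to be tested. It is still 1 of the 2 counted as higher. In the other groups ced-3 lay between 2.36 and 2.81 in isp-1 and between 2.36 and 2.61 in ced-4 single mutants. cps-6, a mitochondrial endonuclease that degrades DNA during apoptosis and like crn-1 and ced-9 named after its values were seen, was higher, with a difference of 0.50, adjusted p = 0.00848. The nucleases nuc-1 (a DNase II), crn-4 and crn-1 were lower, with differences of -0.97, -1.1 and -0.68 (adjusted p = 0.00155, 0.00389 and 0.0118). crn-4 was high with paraquat (7.44, 7.41 and 7.02), intermediate in the double mutant (5.80, 6.52 and 6.25) and low in wild type (4.49 to 5.70). ced-9, the Bcl-2 homologue that restrains CED-4, had overlapping arrays and a difference of -0.23, adjusted p = 0.458.

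Genes that handle heme, iron and cadmium were the list with the largest share called higher among the lists described here. Of 15 tested genes (21 on the array), 9 were higher in the double mutant and none was lower, beside 12.2% and 15.3% over all genes, with a median of 2.61. The mean of the list was 1.61, 1.83 and 1.63 above wild type in the double mutant and -0.25, -0.49 and -0.66 relative to wild type with paraquat. In C. elegans, which takes up its heme from food, HRG-1 moves heme out of lysosome-related vesicles, HRG-3 carries it from the intestine to oocytes and HRG-7 is a protease-like signal of heme status. hrg-7 read 12.65, 12.77 and 12.42 in the double mutant and 9.22, 8.84 and 7.54 with paraquat (difference 4.08 ± 0.48 (SE), adjusted p = 1.65e-05). Every double mutant array was above every paraquat and wild type array, the latter at 10.88, 10.45, 8.30 and 10.45. hrg-1, named after its values were seen, read 9.96, 9.69 and 9.04 against 6.51, 6.63 and 4.78 (12-fold higher, adjusted p = 0.00038), and hrg-9, the worm homologue of TANGO2, read 6.80, 7.56 and 8.60 against 3.67, 3.42 and 4.06 (15.3-fold higher, adjusted p = 6.11e-06). hrg-3 was uneven: it read 7.32, 7.13 and 2.80 in double mutant replicates 1, 2 and 3 against 1.47, 1.64 and 1.40 with paraquat, so its difference of 4.25 (adjusted p = 0.00125) came mostly from replicates 1 and 2.

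The intestinal ferritin ftn-1, an iron store, read 7.81, 8.03 and 7.62 in the double mutant and 4.64, 3.10 and 4.03 with paraquat (difference 3.89 ± 0.71 (SE), adjusted p = 0.000815). The cadmium-responsive genes cdr-2 and cdr-4 did not overlap between the groups either: cdr-2 read 11.21, 12.02 and 11.81 against 7.89, 8.06 and 7.60 (14.2-fold, adjusted p = 1.64e-07), and cdr-4 was 6.1-fold higher (adjusted p = 4.65e-06). The metallothionein mtl-1, named after its values were seen, was called higher (6.09, 6.25 and 7.26 against 4.00, 3.78 and 3.87, adjusted p = 0.0459), and lost the call when any 1 of the 6 arrays was left out, with adjusted p between 0.056 and 0.14. mtl-2, the other metallothionein, did not pass (difference 0.63, adjusted p = 0.126). In isp-1 single mutants hrg-7 read 12.09, 12.08 and 11.93, cdr-2 11.75, 11.53 and 10.91 and ftn-1 7.32, 6.27 and 6.79. Counted over every probe set of its genes in place of 1 probe set a gene, the list's median was 0.78. With 1 array left out, 7 or 8 members were called higher.

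**Figure D3:**
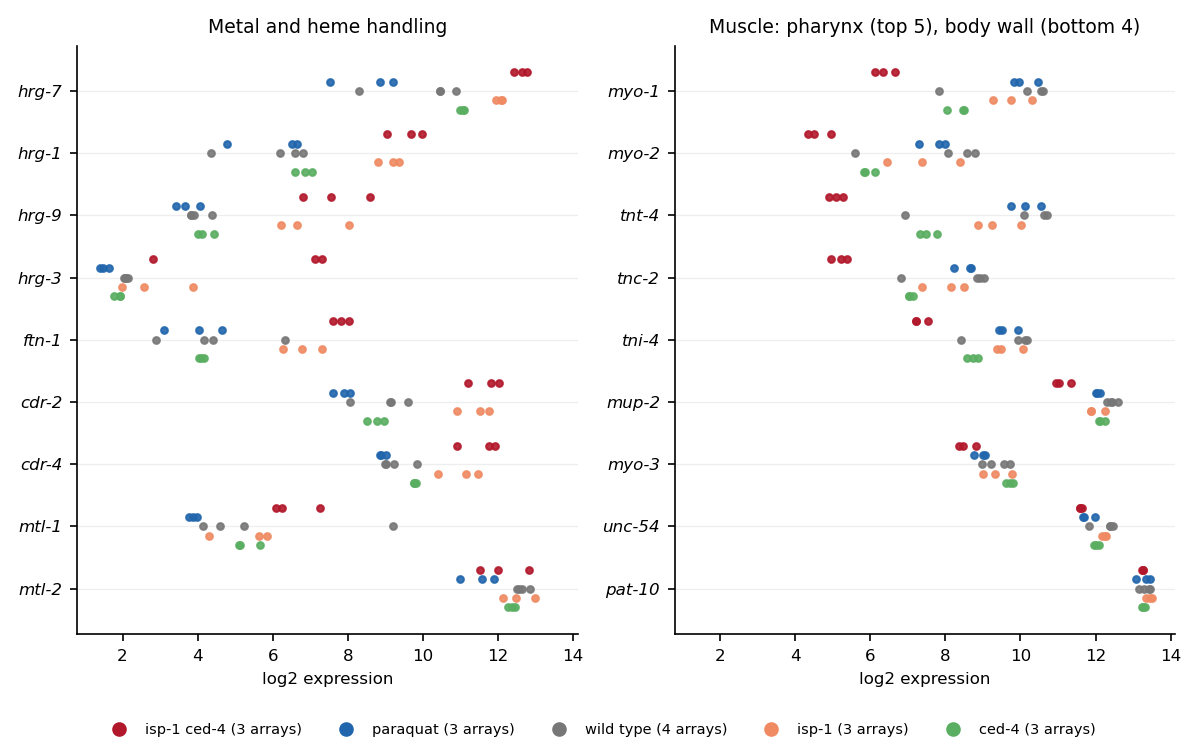
Log2 expression in each array of metal and heme genes (left) and muscle genes (right), coloured by group. The double mutant lies to the right of paraquat for hrg-7, hrg-1, hrg-9, ftn-1, cdr-2, cdr-4 and mtl-1, and to the left of every other array for the pharyngeal genes myo-1, myo-2, tnt-4, tnc-2 and tni-4, while pat-10 of the body wall overlaps.

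Among detoxification enzymes, more genes were higher than lower in the double mutant, beside 12.2% higher and 15.3% lower over all genes. Cytochrome P450 enzymes oxidise foreign compounds, and 16 of 38 tested were higher and 1 lower (median 0.70, against -0.05 over all genes). cyp-33C8 read 9.18, 9.74 and 9.02 against 4.62, 4.85 and 5.11 with paraquat (21.9-fold, adjusted p = 7.73e-06). cyp-13A5, cyp-33C9 and cyp-14A1 were 19.5-fold, 5.66-fold and 6.71-fold higher, while cyp-14A5 was 5.36-fold lower (adjusted p = 0.00043, 1.82e-06, 1.34e-05 and 0.00013). UDP-glucuronosyltransferases add sugars to such compounds, and 19 of 46 were higher and 4 lower (median 0.63). Against isp-1 single mutants the cytochrome P450 and glucuronosyltransferase medians were 0.12 and 0.02, beside 0.02 over all genes. The count of glucuronosyltransferase genes lower than with paraquat was 2 without paraquat replicate 3, double mutant replicate 2 or double mutant replicate 3. ugt-62 read 11.83, 12.59 and 12.31 against 8.76, 8.89 and 8.98 (difference 3.37 ± 0.23 (SE), adjusted p = 3.44e-08), with wild type between the groups at 9.78 to 10.57. ugt-50 and ugt-19 were 9.18-fold and 13.8-fold higher (adjusted p = 2.06e-07 and 3.18e-05), and ugt-29 was 3.97-fold lower (adjusted p = 4.79e-05).

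Against wild type the 46 glucuronosyltransferase genes gave these counts: 16 were higher and 12 lower in the double mutant, where 29.3% and 22.5% of all genes were, and 0 were higher and 18 lower with paraquat, where 25.9% and 16.2% of all genes were. Under cyclic loess scaling the share of calls that were higher fell from 56.6% to 43.8% in the double mutant against wild type and from 61.4% to 44.4% with paraquat against wild type, with the median of all genes moving from 0.11 to -0.03 and from 0.10 to -0.04. Glutathione S-transferases conjugate glutathione to reactive compounds. Of 27 tested, 10 were higher and 3 lower in the double mutant than with paraquat (median 0.23), and 5 were higher without double mutant replicate 2, 6 without double mutant replicate 3 or paraquat replicate 1. Against isp-1 single mutants the median of the transferases was -0.33. gst-13 read 8.90, 9.58 and 9.50 against 7.62, 7.40 and 7.89 (3.23-fold, adjusted p = 2.15e-06). gst-6 and gst-22 were 3.13-fold and 4.3-fold higher (adjusted p = 4.36e-05 and 0.00054), and gst-28 was 2.71-fold lower (adjusted p = 7.04e-05). gst-4, a widely used reporter of the oxidative stress response that was picked after its values were seen, read 10.35, 10.61 and 10.88 against 8.27, 8.29 and 8.75 (4.53-fold higher, adjusted p = 0.00367).

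Among antioxidant enzymes, more genes were higher than lower in the double mutant relative to worms given the superoxide-generating drug. Of 23 tested genes of superoxide and peroxide detoxification, 11 were higher and 2 lower (median 0.43), beside 12.2% and 15.3% over all genes. The mitochondrial thioredoxin trx-2 read 11.12, 10.95 and 11.14 against 9.79, 9.85 and 9.69 (1.3 ± 0.10 (SE), adjusted p = 5.55e-08), and its reductase trxr-2 read 7.55, 7.32 and 7.5 against 6.17, 6.09 and 5.82 (1.42 ± 0.18 (SE), adjusted p = 4.28e-05). msra-1, which repairs oxidised methionine, was 5.37-fold higher (adjusted p = 8.27e-05) and the mitochondrial peroxiredoxin prdx-3 1.64-fold (adjusted p = 0.000136). Against isp-1 single mutants trx-2, trxr-2, msra-1 and prdx-3 differed by 0.08, -0.01, 0.73 and 0.03, and the median of the list was -0.01. sod-3, an inducible manganese superoxide dismutase picked after its values were seen, was low in wild type (3.40 to 3.98), intermediate with paraquat (6.03, 5.89 and 5.81) and higher in the double mutant (6.74, 6.84 and 7.79, difference 1.21, adjusted p = 0.00699). Its highest values were in isp-1 (8.12, 8.30 and 8.14). The other manganese enzyme, sod-2, had overlapping arrays (difference -0.03, adjusted p = 0.865). The glutathione peroxidases gpx-3 and gpx-5 were the members that were lower. gpx-3 read 2.52, 2.68 and 2.85 against 7.19, 8.0 and 8.17 (difference -5.10, adjusted p = 0.000307). The double mutant values lay below the filter value of 3.68, where the size of a fold is uncertain. In the other groups it varied widely, from 4.39 to 8.48 in wild type and 4.06 to 7.33 in isp-1, and gpx-5, chosen after its values were seen, was 2.68-fold lower (adjusted p = 0.00119).

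The list of chaperones, proteases and import factors of the mitochondrial unfolded protein response had 11 of 24 tested genes higher and 1 lower (median 0.47). Over all genes 12.2% were higher and 15.3% lower. The list also held hrg-9, described above with the heme genes, which was 1 of the 11 and was counted in both lists. The import subunit timm-17B.2 read 8.33, 8.49 and 9.18 against 6.42, 6.17 and 6.46 (2.32 ± 0.19 (SE), adjusted p = 3.21e-07). hsp-6, the mitochondrial Hsp70 used as a reporter of this response, read 11.51, 11.87 and 11.89 against 10.29, 10.40 and 10.51 (1.36 ± 0.17 (SE), adjusted p = 2.23e-05), and the matrix protease clpp-1 was 1.44-fold higher (adjusted p = 0.000913). The other reporter, the chaperonin hsp-60, chosen after its values were seen, was the member that was lower, at 9.32, 8.89 and 8.70 against 10.16, 9.95 and 10.25 (difference -1.15, adjusted p = 0.00187). Against wild type, hsp-60 differed by -1.38 in the double mutant and -0.23 with paraquat. Against isp-1 single mutants the median of the list was 0.07, and timm-17B.2, hsp-6 and clpp-1 differed by 0.34, 0.44 and -0.01.

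Respiratory chain subunits and assembly factors were described by complex, beside 12.2% higher and 15.3% lower over all genes. Of 36 tested complex I genes 12 were higher and 2 lower in the double mutant (median 0.22), with 7 higher without paraquat replicate 1 or double mutant replicate 2 and 5 in a fit of the compared groups alone. The list's mean relative to wild type was -0.03, -0.02 and -0.05 in the double mutant and -0.15, -0.16 and -0.15 with paraquat. nduf-7 and ndub-3 were higher by 0.77 and 0.63 (adjusted p = 0.00165 and 0.00473). Relative to wild type they differed by 0.26 and 0.08 in the double mutant and by -0.51 and -0.55 with paraquat. The assembly factor nuaf-6 was 1 of those lower, reading 7.84, 8.08 and 7.66 against 9.44, 9.50 and 9.47 (3.05-fold lower, adjusted p = 3.16e-05). Of 25 genes of complexes II to IV and cytochrome c, 6 were higher and 1 lower (median 0.16); the complex IV subunits cox-5A, cox-6C and cox-6B were higher, with a difference of 0.49, 0.45 and 0.42 (adjusted p = 0.00178, 0.00262 and 0.0021). Of 10 ATP synthase genes 4 were higher, led by atp-3 (difference 0.43, adjusted p = 0.00357), and 2 were higher under cyclic loess scaling or without paraquat replicate 1, 1 without double mutant replicate 2. In glycolysis 6 of 16 were higher and 1 lower (median 0.25). The aldolase aldo-1 read 11.26, 11.68 and 11.89 against 9.84, 10.44 and 10.31 (2.66-fold, adjusted p = 0.000483), and lactate dehydrogenase ldh-1, triosephosphate isomerase tpi-1 and phosphofructokinase pfk-1.1 were 2.5-fold, 2.01-fold and 1.62-fold higher (adjusted p = 0.000275, 0.000135 and 0.000353). Relative to wild type cox-6C, atp-3 and tpi-1 differed by 0.11, 0.14 and 0.27 in the double mutant and by -0.34, -0.29 and -0.74 with paraquat. For aldo-1 and ldh-1 these differences were 1.79 and 1.51 in the double mutant and 0.38 and 0.19 with paraquat. Against isp-1 single mutants aldo-1, ldh-1, tpi-1 and pfk-1.1 differed by 0.05, 0.14, 0.46 and 0.19.

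Among muscle genes more were lower than higher in the double mutant, with the largest differences in genes of the pharynx, the feeding pump. Of 31 tested muscle genes 14 were lower and 1 was higher (median -0.39), beside 15.3% and 12.2% over all genes. tnt-4, a troponin T, read 4.90, 5.09 and 5.29 in the double mutant and 9.74, 10.54 and 10.12 with paraquat (-5.04 ± 0.67 (SE), adjusted p = 5.49e-05), 33-fold lower. The pharyngeal myosins myo-1 and myo-2 read 6.13, 6.33 and 6.66 against 9.84, 9.96 and 10.46 and 4.5, 4.35 and 4.96 against 7.31, 7.83 and 7.99 (adjusted p = 7.5e-05 and 0.0014). tnc-2, a troponin C, read 5.39, 4.97 and 5.21 against 8.22, 8.70 and 8.66 (adjusted p = 3.96e-05), and the troponin I gene tni-4 7.54, 7.21 and 7.22 against 9.50, 9.44 and 9.92 (adjusted p = 0.000166). Every double mutant array was below every paraquat array for these 5 genes.

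The 5 pharyngeal genes were grouped, and myo-2 and tni-4 named, after their values were seen, as were the body wall genes below. Their mean relative to wild type was -3.35, -3.45 and -3.17 in the double mutant, -0.12, 0.25 and 0.39 with paraquat, -0.75, 0.42 and -0.26 in isp-1 and -1.56, -1.45 and -1.55 in ced-4. Of all arrays in the series the double mutant arrays were the lowest. The arrays of nuo-6 with ced-4 came next (-2.16, -1.94 and -2.16), then wild type replicate 1 (-1.92) and the ced-4 arrays. The other 3 wild type arrays were at 0.39, 0.79 and 0.74. Differences in 6 body wall muscle genes were smaller, from -1.67 for tni-3, a troponin I, to -0.03 for pat-10, a troponin C, and mup-2, a troponin T, differed by -0.95 ± 0.12 (SE), adjusted p = 4.75e-05. The body wall myosins myo-3 and unc-54 did not pass (adjusted p = 0.153 and 0.427). phat-4, named for its likeness to toxins in pharyngeal gland cells, read 6.62, 5.17 and 5.13 against 9.13, 9.37 and 9.68, and the P-glycoprotein transporter pgp-14 2.38, 2.63 and 2.31 against 6.07, 5.84 and 7.02 (adjusted p = 0.000336 and 0.000106). 

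Genes of extracellular surfaces were described by 3 lists, beside 15.3% lower and 12.2% higher over all genes. Of 44 tested members of the abu and pqn families, which encode glutamine- and asparagine-rich proteins, several of them parts of the pharyngeal cuticle, 14 were lower and 2 higher (median -0.36). abu-15 read 3.06, 3.12 and 3.13 in the double mutant and 6.75, 6.63 and 7.33 with paraquat (adjusted p = 0.000643), but 10.65, 10.79 and 10.95 in ced-4 and 3.44, 2.58 and 3.92 in isp-1 single mutants. abu-8 had the same order, with 10.56, 10.63 and 10.71 in ced-4, 5.65 to 6.44 with paraquat and 3.10 to 3.65 in the double mutant (adjusted p = 0.000643); both probe sets may bind several transcripts. pqn-94 and pqn-31 were 10.8-fold and 8.35-fold lower (adjusted p = 0.000158 and 0.000346). Of 117 cuticle collagen genes 26 were lower and 5 higher (median -0.22). The lower count was 14 without double mutant replicate 2 or 3 and 16 without paraquat replicate 2, and 3 were higher without paraquat replicate 1 or double mutant replicate 3. col-149 read 7.85, 5.87 and 5.17 against 9.64, 9.90 and 10.05 (adjusted p = 0.000379), and col-39 read 10.77, 7.35 and 5.73 against 10.90, 11.34 and 11.78 (adjusted p = 0.00354), so that its replicate 1 was close to paraquat. Some collagens went the other way: col-95 and col-101 read 13.25, 13.17 and 13.37 and 12.70, 12.90 and 12.93 against 11.45, 11.62 and 11.61 and 10.82, 11 and 11.10 (3.25-fold and 3.65-fold higher, adjusted p = 7.69e-08 and 4.45e-06). Of 22 hedgehog-related genes, whose products are linked to the cuticle and molting, 6 were lower and none higher (median -0.36), led by grl-7 (-1.45, adjusted p = 0.000303) and grd-10 (-1.93, adjusted p = 0.00187).

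Among the rises, the largest included genes outside the lists described so far. scrm-4, a phospholipid scramblase family gene, read 8.36, 8.18 and 8.80 in the double mutant and 3.51, 3.21 and 3.94 with paraquat (4.89 ± 0.33 (SE), adjusted p = 2.86e-08). It was also high in isp-1 (8.54, 6.77 and 6.77) and ced-4 (6.91, 6.94 and 7.16) and low in wild type (2.74 to 3.24). clc-11, a claudin-like gene, read 5.89, 7.15 and 5.68 in the double mutant and at most 3.79 in the isp-1 arrays and 2.33 with paraquat (difference 3.98 ± 0.42 (SE), adjusted p = 6.11e-06). clec-190, a C-type lectin, read 6.95, 7.41 and 6.53 in the double mutant against 2.84 to 3.28 with paraquat, 2.47 to 2.92 in wild type, 2.44 to 2.90 in isp-1 and 2.61 to 3.01 in ced-4 (adjusted p = 8.59e-10). Among these groups it reached the filter value of 3.68 in the double mutant alone, so it had to differ to be tested. nta-1 and sysm-1 were 17.9-fold and 22.1-fold higher (adjusted p = 0.000253 and 0.00134). Genes known by a sequence name alone gave larger rises. ZK177.9 read 9.16, 9.91 and 10.84 against 3.04, 3.09 and 3.12, Y49G5A.1 9.31, 9.65 and 8.37 against 2.19, 2.51 and 2.47 and C07G1.7 8.67, 8.25 and 9.35 against 2.34, 3.12 and 2.67 (adjusted p = 4.65e-06, 5.81e-10 and 1.15e-06). All 3, like clc-11, clec-190, clec-174, clec-17 and hrg-3, were below the filter value with paraquat, where fold changes are uncertain.

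Among the falls, F42A10.7 read 3.58, 3.74 and 3.98 in the double mutant and 9.87, 9.02 and 9.95 with paraquat (-5.85 ± 0.46 (SE), adjusted p = 1.44e-07), and the isp-1 arrays lay between the groups at 6.02, 8.20 and 7.29. F13C5.5 and Y73F4A.3 were 28.2-fold and 11.7-fold lower (adjusted p = 9.55e-06 and 0.00038). The aquaporin aqp-8, a water channel, read 5.14, 3.73 and 3.13 against 8.13, 8.05 and 7.85 (-4.01 ± 0.46 (SE), adjusted p = 1.33e-05). The calponin-like gene clik-2 and fipr-2, of a family related to fungus-induced proteins, were 11.9-fold and 10.8-fold lower (adjusted p = 2.58e-05 and 1.34e-05). idpp-15 and dbd-13 were 16.4-fold and 12.6-fold lower (adjusted p = 0.000643 and 0.00011). For dbd-13 the ced-4 arrays were the highest of the groups given here, at 10.16, 10.15 and 10.04, and the isp-1 arrays were low (4.10, 3.60 and 3.36).

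**Figure D4:**
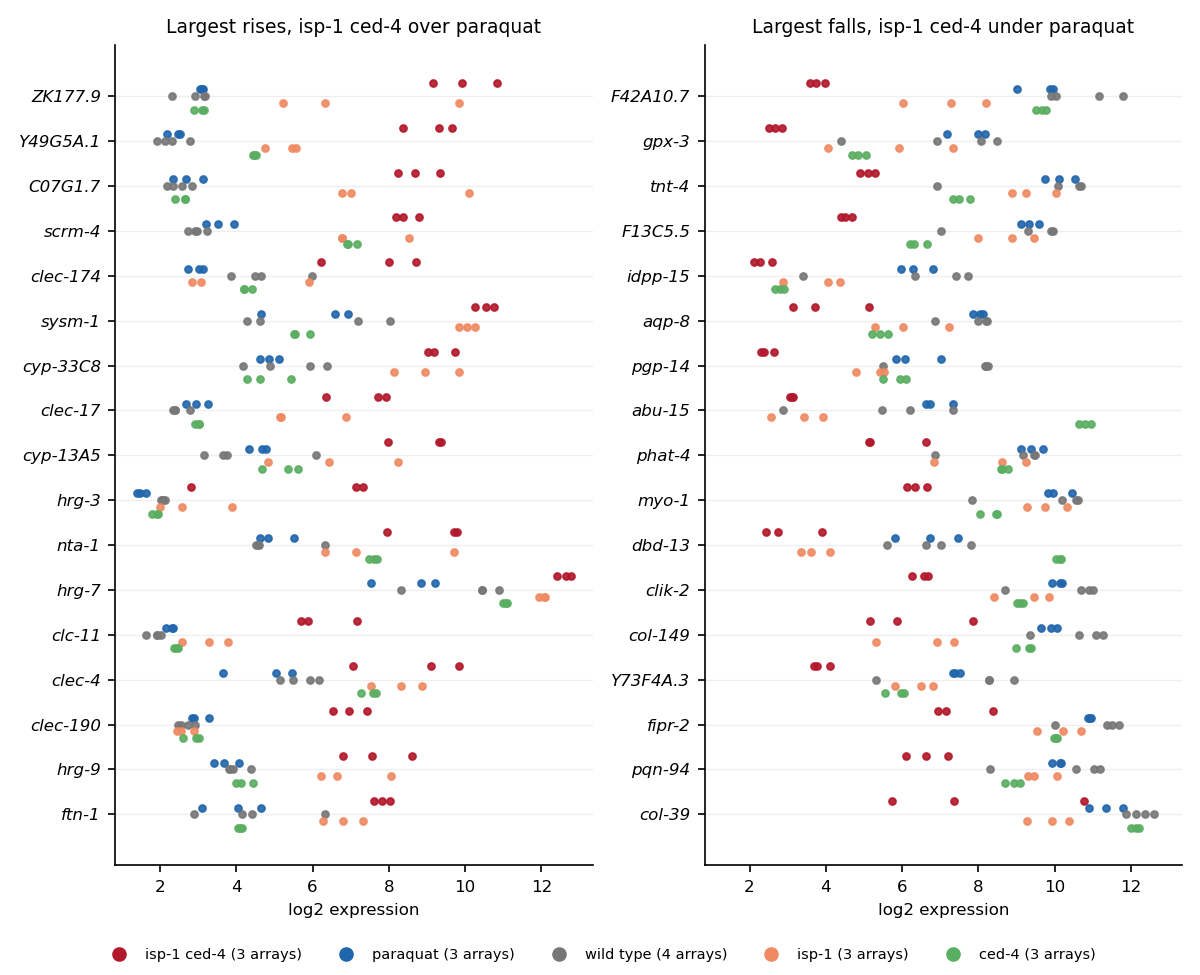
Log2 expression in each array of the genes with the largest rises (left) and those with the largest falls (right), coloured by group; each point is 1 array. In every row the double mutant and paraquat points do not overlap, as the choice of genes required, while the isp-1 points lie near the double mutant for hrg-7, sysm-1 and cyp-33C8 and near paraquat for clec-190.

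Immune effector families were described by 3 lists, beside 12.2% higher and 15.3% lower over all genes. Of 63 tested C-type lectins, of 220 on the array, 16 were higher and 4 lower (median 0.11), and the lower count was 2 without paraquat replicate 1 or 2 or double mutant replicate 2, 13 in a fit of the compared groups alone and 12 with array weights. clec-174 and clec-17 were 25.8-fold and 20.6-fold higher, with replicate 3 of the double mutant below replicates 1 and 2 for both (8.72, 7.99 and 6.22, and 7.93, 7.70 and 6.35), against 2.73 to 3.12 and 2.68 to 3.27 with paraquat (adjusted p = 0.00046 and 3.23e-05). clec-4 was 15.6-fold higher (adjusted p = 0.00019). The 16 include clec-190, described above, which had to differ to be tested. Among 25 lysozymes and saposin-like proteins 5 were higher and 2 lower (median 0.31), with 3 higher without paraquat replicate 2. The lysozymes lys-2 and lys-1 read 12.57, 12.78 and 12.52 against 10.14, 10.04 and 10.34 and 12.53, 12.59 and 12.46 against 11.20, 11.39 and 11.31 (5.46-fold and 2.35-fold, adjusted p = 2.26e-06 and 1.35e-05), while spp-4 was 2.91-fold lower (adjusted p = 0.000572). Of 17 infection response genes 2 were higher and 2 lower, shares near or below those over all genes, and 4 were higher in a fit of the compared groups alone and 6 with array weights. The largest rise of this list was that of sysm-1, described above (difference 4.46, adjusted p = 0.00134). irg-1 read 2.85, 3.59 and 4.19 in the double mutant against 5.88, 6.14 and 6.99 with paraquat (difference -2.79, adjusted p = 0.0004) and irg-3 differed by -1.26, adjusted p = 0.0011, while irg-7 was higher, with a difference of 1.0, adjusted p = 0.00272.

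Of 95 tested nuclear hormone receptors, ligand-regulated transcription factors much expanded in C. elegans, 23 were higher and 8 lower (median 0.18), with 15 higher without double mutant replicate 2. Over all genes 12.2% were higher and 15.3% lower. nhr-65 and nhr-115 were 4.59-fold and 4.96-fold higher (adjusted p = 3.35e-06 and 0.000215). Of 92 F-box and Skp1-related genes, adaptors of ubiquitin ligases, 31 were higher and 11 lower (median 0.37); the lower count was between 4 and 7 without each array other than double mutant replicate 2. fbxa-51 and fbxa-107 were 4.96-fold and 3.19-fold higher, while fbxa-170 was 4.05-fold lower (adjusted p = 3.12e-06, 3.26e-05 and 4.07e-05). fbxa-170 read 5.98, 5.77 and 5.02 with paraquat and 2.74 to 3.65 in wild type, and among the groups given here it reached the filter value of 3.68 with paraquat alone. Of 14 genes associated with the hypoxia factor HIF-1, 3 were higher and 4 lower (median -0.06). cyp-36A1 was 3.83-fold higher, and cdo-1 (cysteine dioxygenase) and cah-4 (carbonic anhydrase) were 2.12-fold and 1.85-fold lower (adjusted p = 0.006, 0.00311 and 0.00611).

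Of 10 tested osmotic response genes 3 were lower and 1 was higher (median -0.65), beside 15.3% and 12.2% over all genes. hmit-1.1, a proton-coupled inositol transporter, read 2.51, 1.59 and 2.14 in the double mutant, 5.58, 4.90 and 4.82 with paraquat and 7.20, 8.07, 7.30 and 8.42 in wild type, so that both groups were below wild type and the double mutant further (-3.02 ± 0.35 (SE), adjusted p = 1.33e-05 between them). osm-11 was higher, with a difference of 0.46, adjusted p = 0.00991, and lost the call without double mutant replicate 2 or paraquat replicate 3 (adjusted p = 0.051 and 0.065). Of 22 genes of fatty acid synthesis, desaturation and elongation 6 were lower and 2 higher (median -0.19), with 3 lower without double mutant replicate 2. The stearoyl-CoA desaturase fat-7 read 5.01, 4.95 and 5.22 in the double mutant, 8.04, 8.83 and 6.48 with paraquat and 10.43, 10.66, 8.34 and 10.94 in wild type, of which replicate 3 lay within the paraquat range (adjusted p = 0.00158 between the groups). The desaturase fat-3 and the acetyl-CoA carboxylase pod-2 were 2.34-fold and 2.02-fold lower (adjusted p = 0.000135 and 0.00051). nhr-49, a nuclear receptor that regulates fat metabolism, was 1.62-fold higher (adjusted p = 0.00529).

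Of 14 insulin-like peptides 5 were lower and 1 higher (median -0.41), beside 15.3% and 12.2% over all genes. Without double mutant replicate 2, 3 were lower. ins-30 read 3.98, 4.37 and 4.21 against 5.28, 5.89 and 5.43 (difference -1.34, adjusted p = 0.00158). Of 62 neuropeptide genes 5 were higher and 9 lower (median -0.18), a share near the background of all genes. nlp-17 was 3.14-fold higher and nlp-16 2.7-fold lower (adjusted p = 0.00013 and 0.00108). Against isp-1 single mutants, where 15.5% of all genes were higher in the double mutant and 18% lower, 35 of the 62 neuropeptide genes were lower and 3 higher. Of 18 tested neuronal markers, 2 were higher and 1 lower in the double mutant than with paraquat. The lower neuropeptide count was 4 without paraquat replicate 2, and 3 were higher without double mutant replicate 2 or paraquat replicate 3, while 16 were lower in a fit of the compared groups alone.

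Of 32 tested histone genes 9 were lower and 3 higher (median -0.25), beside 15.3% lower and 12.2% higher over all genes. The core histones his-38 and his-64 were 3.84-fold and 2.3-fold lower (adjusted p = 0.000162 and 0.000886), and histone copies share sequence, so that probe sets may bind several. The linker histone his-24, picked after its values were seen, read 9.20, 10.61 and 9.70 in the double mutant and 8.14, 7.61 and 7.91 with paraquat (difference 1.95, adjusted p = 0.00375). It was lower in wild type, at 6.77, 5.09, 4.69 and 4.78, and in isp-1 (4.64, 5.42 and 5.98), while the ced-4 arrays read 8.20, 8.43 and 7.89. Of 33 proteasome subunits 7 were lower and none higher (median -0.16), with 4 lower without double mutant replicate 1 or paraquat replicate 1 and 12 lower under cyclic loess scaling. rpn-6.1, a lid subunit, was lower, with a difference of -0.45, adjusted p = 0.00921; relative to wild type it differed by 0.14 in the double mutant and 0.59 with paraquat. Of 5 yolk protein genes vit-2 and vit-6 were higher (0.72, adjusted p = 0.00306, and 0.50, adjusted p = 0.00217). Of 25 tested intestinal markers 4 were higher and 2 lower (median 0.28), shares near or below those over all genes. Without double mutant replicate 1, 7 were higher. The cysteine proteases cpr-3 and cpr-5 were 3.48-fold and 1.7-fold higher, and the intestinal filament gene ifb-2 2.04-fold lower (adjusted p = 0.0031, 0.00653 and 0.00336).

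**Figure D5:**
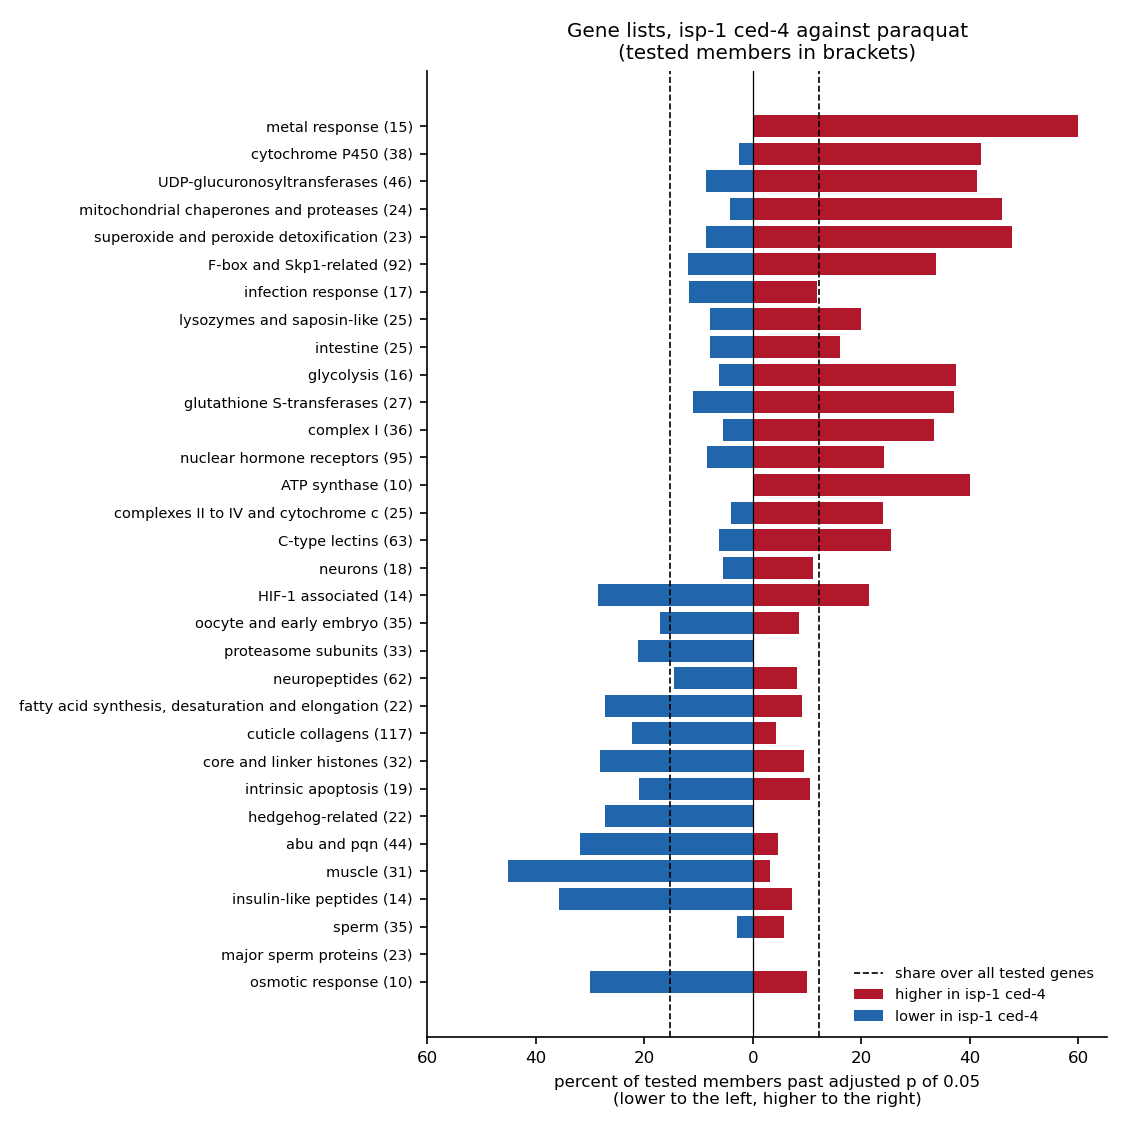
Percent of the tested members of each list that passed an adjusted p of 0.05, higher in the double mutant to the right and lower to the left, ordered by the list's median difference; dashed lines mark the shares over all tested genes, 12.2% and 15.3%. The longest bars to the right are those of the metal response, superoxide and peroxide detoxification, and mitochondrial chaperones and proteases, and the longest to the left are those of muscle, insulin-like peptides, and abu and pqn.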

How the data were processed

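Per the submitters' processing notes the arrays were processed with GCRMA, and the deposited table of log2 expression values made by the authors was used as given, with values from 0.926 to 15.25. No source used here states the GCRMA version or if the 22 arrays were normalized as 1 set.

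Of 22625 probe sets, 77 controls were dropped. Of the other 22548, 20766 had 1 gene symbol, 20701 of them updated through their gene identifier, 887 had several and 895 none. Probe sets at or above 3.68, the table's median, on at least 3 arrays were kept (12639), and where a gene had several, the probe set of highest mean stood for it.

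All 22 arrays in 7 groups were fitted with limma 3.58.1 in R 4.3.3 (lmFit, eBayes), and p-values were adjusted by Benjamini-Hochberg over the kept probe sets, with a threshold of 0.05. Standard errors are from this fit. It was run on simulated data with independent normal noise, of the same spread in every group for a given probe set. The real groups differ in spread (median SD 0.12 in ced-4 and 0.30 in wild type) and hold arrays that stand apart. The simulation did not cover those conditions. Genes named were the mutated genes, the largest rises and falls without overlap between groups, and up to 4 members of each list with the smallest p-values. The members, lists and naming rule were chosen with earlier results of these data known. Alternatives were other filters, scalings, weights, a replicate block and leaving out arrays.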

Additional observations from a re-analysis of the deposited data

Results flagged for a closer look

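In each of 135 genes named in the report, the highest or lowest of the 4 wild type arrays was compared with the spread of the others, and 21 genes had an array that stood far from the rest. Chance alone gives about 1 such array in 20 groups, and genes of 1 tissue are not independent. Groups of 3 arrays were not tested in this way.

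Wild type replicate 1 lay below the other wild type arrays in 14 genes. It read 6.92 for tnt-4, where the others read 10.09 to 10.696. For aqp-8 it read 6.86 against 7.99 to 8.22. The pgp-14 value was 5.49, against 8.17 to 8.24. It read 6.85 for phat-4, where the others read 9.16 to 9.49. For myo-1 it read 7.84 against 10.19 to 10.60. The clik-2 value was 8.71, against 10.695 to 11.01. It read 14.15 for vit-6, where the others read 14.27 to 14.27. For tnc-2 it read 6.83 against 8.86 to 9.03. The cah-4 value was 9.97, against 10.74 to 10.88. It read 6.52 for timm-17B.2, where the others read 6.81 to 6.86. For ins-30 it read 3.99 against 5.15 to 5.23. The unc-54 value was 11.83, against 12.39 to 12.45. It read 8.42 for tni-4, where the others read 9.95 to 10.19. For tni-3 it read 8.80 against 10.78 to 11.18.

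Wild type replicate 1 lay above the other wild type arrays in 2 genes. It read 2.77 for clec-17, where the others read 2.35 to 2.40. For col-95 it read 12.41 against 11.91 to 11.98.

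Wild type replicate 3 lay below the other wild type arrays in 2 genes. It read 8.30 for hrg-7, where the others read 10.45 to 10.88. For spe-44 it read 6.67 against 7.14 to 7.22.

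Wild type replicate 3 lay above the other wild type arrays in 2 genes. It read 6.34 for nta-1, where the others read 4.52 to 4.6. For osm-11 it read 11.09 against 10.91 to 10.93.

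Wild type replicate 4 lay above the other wild type arrays in 1 gene. It read 4.38 for hrg-9, where the others read 3.82 to 3.90.

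The pharyngeal muscle genes tnt-4, myo-1, tnc-2 and tni-4 are all among those lower in wild type replicate 1. These arrays take no part in the difference between the double mutant and paraquat, other than through the shared estimate of the spread.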

How the results depend on the processing

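Between the double mutant and paraquat 2654 genes passed. Among the genes named here, no called gene's difference changed sign under an alternative. Small differences of uncalled genes such as sod-2 and pat-10 and small list medians did change sign. The other called genes were not checked for this. The HIF-1 median of -0.06 became 0.04 without paraquat replicate 2, 0.02 without double mutant replicate 3 and 0.03 with array weights, and the neuron median of -0.03 became 0.03 under cyclic loess and 0.02 under median centring. Median centring gave 1315 genes higher and 1276 lower in place of 1177 and 1477. Leaving out 1 array gave 1715 to 2745 genes, 730 to 1224 higher and 985 to 1521 lower, with the fewest without double mutant replicate 2. Leaving out double mutant replicate 1 and wild type replicate 1 together, chosen after seeing the data, gave 3114, of which 1353 were higher. Array weights, which put most of the double mutant's weight on replicate 2, gave 4673 genes, 2110 higher and 2563 lower. The replicate block gave 2619. Deviations of same-numbered arrays correlated at 0.15, -0.00 and 0.13, and those of arrays with different numbers at -0.21 to 0.09. Deviations cancel within so small a group, so these values cannot show whether the numbers pair the samples. Against isp-1, where 3232 genes passed, leaving out 1 array gave 2109 to 3308, array weights 6069 and a fit of the compared groups alone 1584. Leaving out 1 array gave 3998 to 5207 for the double mutant against wild type and 3402 to 4262 for paraquat against wild type. The cause of these changes was not tested. Group sizes of 3 and 4 and signals near background limit what low genes can show.

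Counts of lists that moved by over 1.5 times, where either count was at least 5, were as follows. Array weights gave 22 lower (from 1) for sperm, 20 lower (from 0) for major sperm proteins, 7 higher (from 3) and 12 lower (from 6) for oocyte and early embryo, 5 higher (from 3) and 14 lower (from 9) for core and linker histones, 11 higher (from 4) and 5 lower (from 2) for intestine, 9 higher (from 5) and 47 lower (from 26) for cuticle collagens, 17 higher (from 11) for mitochondrial chaperones and proteases, 12 lower (from 7) for proteasome subunits, 10 lower (from 6) for fatty acid synthesis, desaturation and elongation, 12 lower (from 4) for C-type lectins, 10 higher (from 5) for lysozymes and saposin-like, 6 higher (from 2) for infection response, 6 lower (from 3) for osmotic response, 7 lower (from 4) for intrinsic apoptosis, 11 higher (from 5) and 18 lower (from 9) for neuropeptides and 39 higher (from 23) and 13 lower (from 8) for nuclear hormone receptors. A fit of the compared groups alone gave 5 higher (from 12) for complex I, 13 lower (from 4) for C-type lectins, 5 lower (from 3) for osmotic response and 16 lower (from 9) for neuropeptides. A filter at 5 on at least 3 arrays also left fewer members tested, so its counts are given beside the number tested. It gave 1 of 7 lower (from 5 of 14) for insulin-like peptides. For nuclear hormone receptors 14 of 55 were higher (from 23 of 95), and for F-box and Skp1-related 18 of 57 (from 31 of 92). Counting every probe set of a gene raised the number tested. It gave 5 of 54 higher (from 3 of 35) for oocyte and early embryo and 8 of 35 higher (from 4 of 25) for intestine. For muscle 23 of 54 were lower (from 14 of 31), and for intrinsic apoptosis 7 of 24 (from 4 of 19). Cyclic loess gave 12 lower (from 7) for proteasome subunits. Median centring gave 7 lower (from 11) for F-box and Skp1-related. The replicate block gave 10 lower (from 6) for oocyte and early embryo. Trended and robust variance gave 7 higher (from 4) for intestine.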
